A study of Mus musculus with 32 samples.

Results

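The nuclear genes of oxidative phosphorylation were taken as the protein-coding genes whose symbol begins with Nduf, Uqcr, Atp5, Cox4, Cox5, Cox6, Cox7, Cox8 or Sdh and which are present in both gene tables. This gave 94 members among 38201 genes, 21746 of them protein-coding. By their names, 31 members are accessory subunits of complex I, 7 its core subunits and 7 its assembly factors, 4 are subunits of complex II and 2 its assembly factors, 8 belong to complex III, 18 to complex IV and 15 to the ATP synthase. *Atp5s* and *Atp5sl* were kept apart. After a filter on low values 92 members could be tested in the whole cell and 91 in the cytoplasm. *Cox8b* and *Cox8c* were too low in both fractions, and *Cox7b2* in the cytoplasm.

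RNA-seq of poly(A)+ RNA was carried out on P19 cells, a mouse embryonal carcinoma line, 36 h after transfection of esiRNA against SRSF1, SRSF2, SRSF3, SRSF4, SRSF5, SRSF6 or SRSF7, or of a control esiRNA against GFP. An esiRNA is an enzymatically prepared pool of short double-stranded RNAs against 1 target. Each of the 8 groups gave 2 fractions, cytoplasm and whole cell, with biological replicates A and B of each, hence 32 libraries. All groups share the cell line and the transfection, and all 7 knockdowns share the same 2 GFP libraries of a fraction. The targeted mRNA was reduced and not removed, with 37.8% to 77.0% of the GFP level left in cytoplasmic and 48.8% to 68.7% in whole-cell libraries. Values are scaled reads, meaning estimated reads per gene that the authors brought to a common depth within each table. Converted back, libraries held 2.77e+07 to 4.86e+07 reads in the cytoplasm and 2.69e+07 to 4.09e+07 reads for whole cells. A gene called here passed a Benjamini-Hochberg adjusted p below 0.05, computed with limma over all genes tested. With pooled cells, less RNA per cell and fewer cells expressing a gene cannot be told apart.

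SR proteins bind RNA in the nucleus, where they take part in splicing, and several of them travel with mRNA to the cytoplasm. The genes examined here build the respiratory chain of the inner mitochondrial membrane. Complexes I and II pass electrons through ubiquinone to complex III, cytochrome c carries them to complex IV, and the proton gradient built on the way drives the ATP synthase. A small set of subunits is encoded by mitochondrial DNA, and all others, described below, are transcribed in the nucleus, spliced, exported and translated in the cytosol before import.

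The P19 label held in both fractions. The 8 markers of pluripotent cells summed to between 2992 and 4483 CPM (reads scaled by the library sum) in cytoplasmic libraries and to between 1562 and 2374 in those of whole cells. Lists for pancreas, testis, liver, lung and for muscle and heart stayed at or below 21.1 CPM. Replicate A of the cytoplasm held more of the pancreas list, with 1.44 to 18.8 CPM against 0.895 to 1.41 in replicate B.

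Members were short and abundant. The median exon length of those tested was 1243 bases against 3553.5 bases for all protein-coding genes, and 58.4% of members against 11.7% of protein-coding genes were shorter than 1500 bases. In GFP cells their median FPKM, which is per length, was 231.5 for cytoplasmic and 119.8 for whole-cell RNA, against 4.78 and 8.39 for all protein-coding genes. Members took up 1.41% to 1.74% of the reads of a cytoplasmic library and 0.902% to 1.01% of a whole-cell library.

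The order of levels was led by the ATP synthase. *Atp5b* (ENSMUSG00000025393, mm10 chromosome 10, 128083273 to 128090391), which encodes the catalytic beta subunit, had 1850 FPKM in whole GFP cells. *Atp5h*, a subunit of the peripheral stalk, had 774 FPKM and *Cox6b1*, a complex IV subunit, had 516 FPKM. Genes chosen for their roles in the other complexes were lower on the same scale. *Cox4i1* of complex IV had 479 FPKM and *Sdha*, the flavoprotein of complex II, 176 FPKM. *Uqcrfs1*, the Rieske iron-sulfur protein, had 51.4 FPKM and *Ndufs1*, the largest core subunit of complex I, 40.8 FPKM. At the other end *Cox7b2* had 0.469 FPKM, and *Cox8b* and *Cox8c* were listed at 0. FPKM values combine both replicates, so that their spread is not given.

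Members stood higher in the cytoplasm than in the whole cell, measured as the log2 ratio between letter-matched fractions of each group less the median ratio of protein-coding genes. The median over members lay between 0.84 and 1.54 in the 16 pairs of libraries (median 1.22), against 1.14 to 1.86 for cytoplasmic ribosomal proteins, 0.82 to 1.49 for mitochondrial ribosomal proteins and 0.75 to 1.26 for all protein-coding genes shorter than 1500 bases. Of 92 members, 84 had a ratio above 0 in all 16 pairs. The highest medians belonged to *Atp5e* (2.11) and *Atp5d* (1.85), small subunits of the central stalk, and to *Ndufa11* (1.76), a membrane subunit of complex I.

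Members with a ratio below 0 in all 16 pairs were *Ndufaf4*, an assembly factor of complex I (median -1.16), *Ndufs1* (-0.72) and *Atp5s* (-0.55). *Sdha* (0.05) and *Cox7b* (0.11) lay near 0 and above it in 12 pairs each. The other complex II subunits were above 0 in all 16 pairs, with medians of 0.90 for *Sdhd*, 1.42 for *Sdhc* and 1.46 for *Sdhb*. The 2 tables were scaled separately, so these ratios are a description and carry no test.

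**Figure D1:**
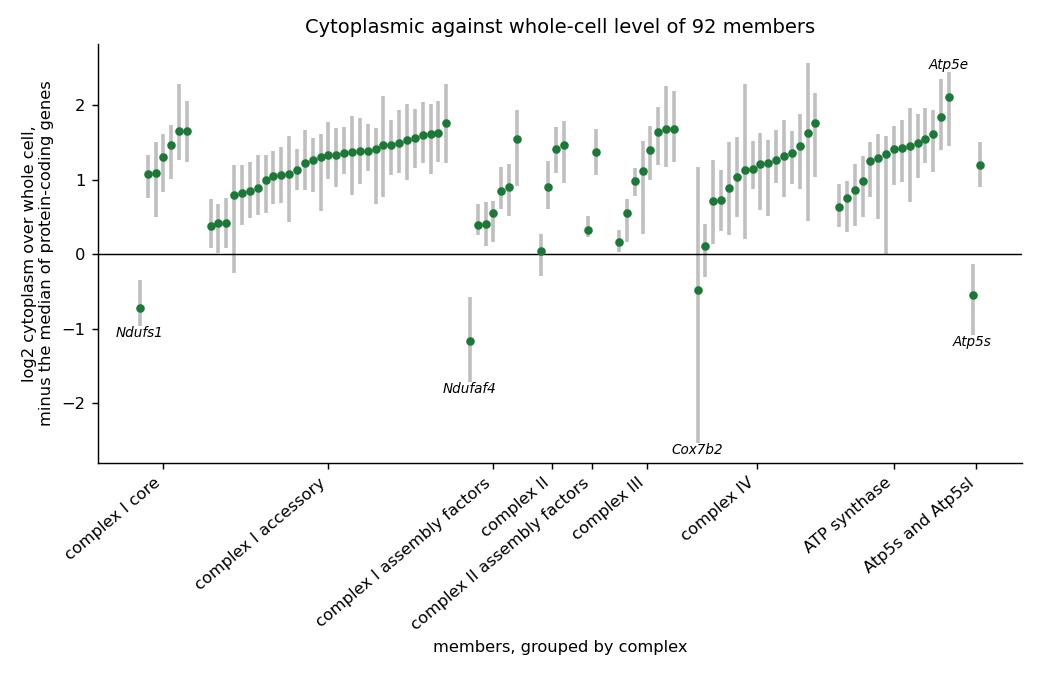
Log2 ratio of cytoplasm over whole cell for 92 members, less the median ratio of protein-coding genes (vertical axis), with members grouped by complex along the horizontal axis. Points are medians over 16 pairs of libraries and bars run from the lowest to the highest pair; 84 members lie above 0 in every pair, and *Ndufaf4*, *Ndufs1* and *Atp5s* below it in every pair.

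A promoter stretch, from 250 bases before to 50 bases after the start, was matched for 75 of the 94 members in RefSeq (GRCm38.p6). It was searched on both strands for a binding motif of NRF1, an activator known for its respiratory chain targets, written as GCGCA, any base N and GCGC. The motif was present in 19 of the 75 (25.3%), against 10.1% of 11451 protein-coding genes tested and 5.19% of 27025 genes in the table. The motif AAGATGGC of YY1 was present in 12% of members and in 4.57% and 3.19% of those backgrounds, and the ETS motif CCGGAAGT in 6.67%, 7.77% and 4.31%. The windows below, 30 bases on the strand of the gene with the NRF1 match in capitals, are shown for members whose values are followed further on.
Sdhd, chr9:50603909-50603938, minus strand: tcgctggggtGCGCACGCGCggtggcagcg
Atp5k, chr5:108434430-108434459, minus strand: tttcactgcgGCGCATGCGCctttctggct
Ndufa5, chr6:24527697-24527726, minus strand: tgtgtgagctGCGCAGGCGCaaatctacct
Atp5g3, chr2:73911295-73911324, minus strand: gagccgcaccGCGCTTGCGCgcccagcccc
Atp5g2, chr15:102671070-102671099, minus strand: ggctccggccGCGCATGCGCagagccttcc
In *Atp5g3* the match is to the motif as it reads on the opposite strand, GCGC, N and TGCGC, and in *Atp5k* and *Atp5g2* the letters match both forms. A match is a description of letters and says nothing of whether NRF1 is bound.

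Few members were called after any knockdown. Of the targeted genes in their own contrasts, limma called *Srsf1* in the whole cell alone (adjusted p = 0.0233). A gene that was not called here is thus not shown to be unchanged. In the whole cell 2 of 92 members passed after SRSF3 knockdown, both higher, where 11.4% of 18540 genes passed. After SRSF1 (0.804% of genes called), SRSF2 (0.0216%) and SRSF7 knockdown (0.0162%) no member passed, with 3, 4 and 5 members at an unadjusted p below 0.05. After SRSF4, SRSF5 and SRSF6 knockdown no gene at all was called (0%), with 0, 0 and 2 members at that unadjusted level. In the cytoplasm no member passed in any of the 7 contrasts, where 0.529% of 17566 genes passed after SRSF3, 0.0455% after SRSF1 and 0% after the other knockdowns. Members at an unadjusted p below 0.05 numbered 3 after SRSF1, 4 each after SRSF2, SRSF3 and SRSF4, 0 after SRSF5, 2 after SRSF6 and 0 after SRSF7. On recovered reads edgeR called 2 members after SRSF3 knockdown in the whole cell and 0 in every other contrast. DESeq2 called 5 members after SRSF3 and 1 each after SRSF1 and SRSF7 in the whole cell, and 1 after SRSF3 in the cytoplasm. The shares of all genes called by edgeR and DESeq2, or at the unadjusted level here and below, are not given. Those member counts are therefore not read as a result about members.

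The labels do not say whether the replicate letters pair the libraries. Pairing was inferred from these data, since A minus B differences correlated between groups, and a second model took the letter as a block. With the block the targeted gene passed in every whole-cell contrast. In the cytoplasm *Srsf2* (limma adjusted p = 0.342), *Srsf5* (0.239) and *Srsf7* (0.0518) did not pass in their own contrasts. The blocked model called 21 members in the whole cell after SRSF3 knockdown, 19 higher and 2 lower. There it called 33.2% of all genes, 16.1% higher and 17% lower. Higher members thus made up 20.7% of the 92 tested and lower members 2.17%. After SRSF1 knockdown it called 2 members (10.9% of genes), after SRSF2 1 member (6%) and after SRSF7 2 members (1.09%). After SRSF4 (0.0108%), SRSF5 (0.00539%) and SRSF6 (0.0216%) it called 0 members, with 3, 3 and 6 at an unadjusted p below 0.05 in the same model. In the cytoplasm it called 2 members after SRSF1 (5.9% of genes), 1 after SRSF2 (1.84%) and 6 after SRSF3 (13.9%), and 0 after SRSF4 (0.0114%), SRSF5 (0%), SRSF6 (0.0911%) and SRSF7 (0.074%), with 9, 2, 17 and 6 members at an unadjusted p below 0.05.

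**Figure D2:**
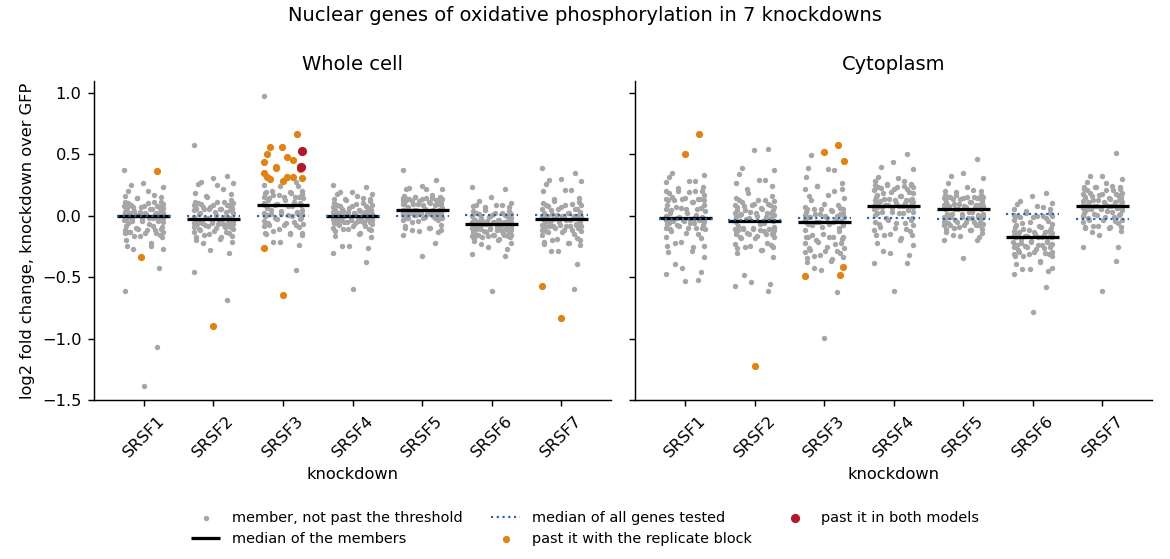
Log2 fold change of each member, knockdown over GFP (vertical axis), for 7 knockdowns, with whole-cell libraries in the left panel and cytoplasmic ones in the right, from n = 2 libraries per group. Gray points are members that were not called, orange points passed with the replicate block and red points in both models; black bars mark the median of the members and dotted blue bars that of all genes tested. The SRSF3 knockdown holds 21 of the 26 orange and red points of the whole cell.

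The median over members was close to 0 in most contrasts. The median log2 fold change in the whole cell was 0.001, -0.02, 0.09, -0.005, 0.04, -0.07 and -0.02 for SRSF1 to SRSF7 in order, and in the cytoplasm -0.02, -0.04, -0.05, 0.08, 0.05, -0.17 and 0.08. Protein-coding genes shorter than 1500 bases had medians of -0.13 in the cytoplasm after SRSF6 and 0.05 in the whole cell after SRSF3. In the cytoplasm after SRSF6 knockdown 78 of 91 members were below 0, at -0.16 in replicate A and -0.21 in replicate B relative to all genes, and none was called. Cytoplasmic ribosomal proteins stood at -0.22 and mitochondrial ribosomal proteins at -0.19 in the same contrast.

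In the whole cell the replicate letters differed. Relative to all genes, the median over members was above 0 in the A pair of every knockdown, between 0.02 after SRSF6 and 0.19 after SRSF3 and SRSF5. In the B pair it was below 0 for 6 of 7 knockdowns, down to -0.18 after SRSF6, and 0.01 after SRSF3. The GFP libraries themselves stood apart, with a median deviation of members from their mean over all libraries of -0.06 in GFP A and 0.07 in GFP B. All 7 knockdowns went the other way, with the higher median deviation in A. The block takes out only a difference between letters that all groups share, and it left the log2 fold changes as they were. It therefore does not test this difference. The part of the difference in the results below was not tested, other than by leaving out each library.

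SRSF3 knockdown gave more called members than the other 6 knockdowns, and it also gave the most called genes of any kind. In both fractions and both models a smaller share of members than of all genes was called. With the block in the whole cell, members were called higher somewhat more often than all genes and lower less often. In both models *Sdhd* and *Ndufa10* were higher in the whole cell. *Sdhd* (ENSMUSG00000000171, mm10 chromosome 9, 50596338 to 50603849, minus strand) encodes a membrane anchor of complex II. It had 5478 and 4046 scaled reads in replicates A and B of SRSF3 knockdown, against 3081 and 3398 in GFP cells. Both knockdown libraries lay above both GFP libraries, with A further away than B. The means were 4762 ± 1013 after knockdown and 3239 ± 224 in GFP cells (SD, n = 2 each), a log2 fold change of 0.53 (SE 0.16, limma adjusted p = 0.0483, with the block 0.00149).

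*Ndufa10* (ENSMUSG00000026260, mm10 chromosome 1, 92439010 to 92473860, minus strand), an accessory subunit of complex I, had 4660 and 4244 scaled reads after SRSF3 knockdown against 3257 and 3428 in GFP cells. The groups did not overlap and the replicates lay close together in each. The log2 fold change was 0.40 (SE 0.08, limma adjusted p = 0.0142, with the block 0.00126). Without the block, leaving out SRSF3 replicate A, GFP replicate A or GFP replicate B each ended both calls, with adjusted p of 0.415, 0.214 and 0.113 for *Sdhd* and of 0.134, 0.0996 and 0.0520 for *Ndufa10*. With the block both genes passed whichever library was left out.

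In complex II 1 of 4 subunits, *Sdhd*, was higher with the block in both fractions, and so were its 2 assembly factors. Of all genes 16.1% in the whole cell and 7.19% in the cytoplasm were higher. In the cytoplasm *Sdhd* had 7163 and 7390 scaled reads after SRSF3 knockdown against 4457 and 5315 in GFP cells, again with no overlap (log2 fold change 0.57, SE 0.14, limma adjusted p = 0.101, with the block 0.00463). *Sdhaf1*, which helps to place the iron-sulfur clusters of the SDHB subunit, had 414 and 450 scaled reads after knockdown against 289 and 315 in GFP cells in the whole cell, and 809 and 836 against 529 and 682 in the cytoplasm. *Sdhaf2*, needed to attach the flavin to SDHA, had 1473 and 1036 against 894 and 891 in the whole cell, and 1746 and 1292 against 1095 and 993 in the cytoplasm.

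In all these pairs the knockdown libraries were the higher ones. For *Sdhaf1* the log2 fold change was 0.50 in the whole cell and 0.45 in the cytoplasm (with the block, limma adjusted p = 0.00483 and 0.0498). For *Sdhaf2* it was 0.46 and 0.52 (with the block, adjusted p = 0.0063 and 0.0231). The catalytic subunits differed less than this. *Sdha* had 7141 scaled reads in both whole-cell knockdown libraries against 7395 and 7518 in GFP cells (log2 fold change -0.07, adjusted p = 0.544), and *Sdhb* 5119 and 5022 against 4562 and 4936 (0.08, adjusted p = 0.540).

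Complex III had 4 of 8 members higher with the block in the whole cell after SRSF3 knockdown, *Uqcrh*, *Uqcr11*, *Uqcrb* and *Uqcrfs1*, against 16.1% of all genes. *Uqcrh* (ENSMUSG00000063882, mm10 chromosome 4, 116066965 to 116075071, minus strand), the hinge protein next to cytochrome c1, had 4798 and 3053 scaled reads after knockdown against 2447 and 2328 in GFP cells. Replicate A of the knockdown was far above replicate B, and both were above GFP. Its log2 fold change was 0.67 (SE 0.34, limma adjusted p = 0.215, with the block SE 0.16 and adjusted p = 0.00428). *Uqcr11* had 1817 and 1576 against 1136 and 1142 (0.56, with the block adjusted p = 0.00547), and the core subunit *Uqcrc1* 5117 and 4905 against 4896 and 4947 (0.01, with the block 0.904).

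Of 15 genes of the ATP synthase, 4 were higher and 1 lower with the block in the whole cell, a share close to the 33.2% of all genes called in either direction. *Atp5k*, subunit e of the membrane part, had 1652 and 1191 scaled reads after SRSF3 knockdown against 1009 and 880 in GFP cells (0.56, with the block adjusted p = 0.00449). *Atp5j* and *Atp5f1*, both of the peripheral stalk, had log2 fold changes of 0.31 each (with the block 0.00967 and 0.0253). The c subunit of the rotor is encoded by *Atp5g1*, *Atp5g2* and *Atp5g3*, whose mature proteins are the same and whose reads may be split between them with some uncertainty. *Atp5g3* was higher with 4916 and 4021 against 3578 and 3518 (0.31, with the block 0.0262), *Atp5g2* was lower with 2436 and 2736 against 2819 and 3336 (-0.26, with the block 0.0378), and *Atp5g1* had 4917 and 3711 against 3866 and 3679 (0.17, with the block 0.210). The catalytic *Atp5b* had a log2 fold change of 0.03 (SE 0.09).

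Among the 31 members counted by name as accessory subunits of complex I, the block added 4 in the whole cell to *Ndufa10*, all higher. These were *Ndufb3* (0.44), *Ndufa5* (0.40), *Ndufv3* (0.39) and *Ndufc1* (0.35). The 5 of 31 higher were a share close to that of all genes, of which 2993 of 18540 were higher with the block. *Ndufa4l2*, a paralog of *Ndufa4* known to be induced in low oxygen, was lower with 34.2 and 74.9 scaled reads against 63.9 and 97.5 (-0.64, with the block 0.0424), where the groups overlap and each letter's knockdown library is below its GFP partner. None of the 7 core subunits passed in either model in the whole cell, with log2 fold changes between -0.24 and 0.02. Of the assembly factors *Ndufaf1* was higher (0.48, with the block 0.0124). In complex IV *Cox7a2* (0.38) and *Cox7b* (0.32) were higher, 2 of 16 tested, a share below that of all genes. *Cox4i1* and *Cox5a*, subunits close to the catalytic core, had values of -0.05 and 0.002.

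**Figure D3:**
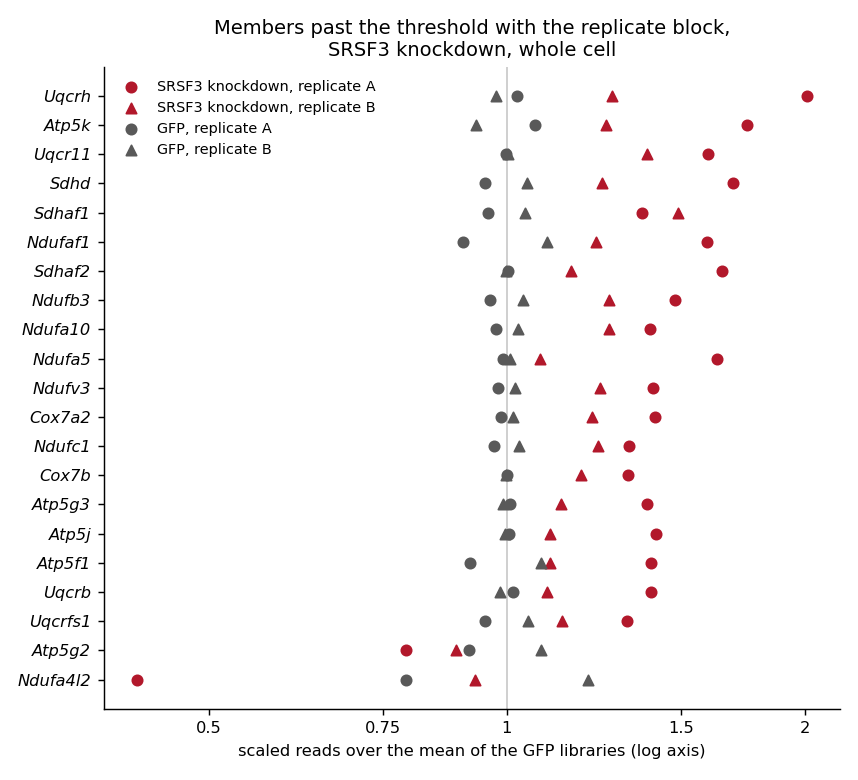
Scaled reads in the whole cell divided by the mean of the GFP libraries (horizontal log axis) for the 21 members that passed with the replicate block after SRSF3 knockdown. Red marks are the SRSF3 knockdown and gray marks GFP, with circles for replicate A and triangles for replicate B. In the 19 higher members both knockdown marks lie to the right of both GFP marks. Of the 2 lower members only *Ndufa4l2* has overlapping groups. The members were picked by a test on these same libraries, so that the marks lie apart adds no support. The share of all genes with groups apart is not given.

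These calls depended on single libraries. With the block, fewer members passed without replicate A of GFP or SRSF3 than without replicate B of either. The share of all genes passing in these 4 fits is not given here, so the shift cannot be read as one of members alone. Among the 21 members *Sdhd*, *Ndufa10* and *Sdhaf1* alone passed whichever library was left out. All 21 kept their sign in each fit. Where groups do not overlap, leaving out 1 library could hardly turn the sign, so the kept sign adds no support.

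In the cytoplasm the block also called 3 members lower after SRSF3 knockdown. *Ndufs8*, an iron-sulfur core subunit of complex I, had 2231 and 3215 scaled reads against 3428 and 4110 in GFP cells (-0.49, with the block 0.0231). *Ndufaf6* had 515 and 626 against 743 and 837 (-0.48, with the block 0.0244), and *Ndufb4* 2408 and 3157 against 3382 and 3986 (-0.42, with the block 0.0381). Each knockdown library lay below both GFP libraries in these 3 genes. The cytoplasmic calls were lost without GFP replicate A and without SRSF3 replicate A. All 6 kept their sign whichever library was left out, which adds no support where the groups do not overlap. Members passing in these fits were not set against the share of all genes.

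The change of the cytoplasm relative to that of the whole cell was tested as an interaction over all 32 libraries. No member of 92 passed in any contrast with limma, where 0.00521% of 19186 genes passed after SRSF3 and 0% after the others, and 0 members had an unadjusted p below 0.05. With the block no member passed either, with 1, 1, 2, 4, 0, 1 and 4 members at an unadjusted p below 0.05 for SRSF1 to SRSF7, where 0.0156% of genes passed after SRSF1, 0.678% after SRSF3 and 0% after the others. The median over members was -0.18 after SRSF3 with 83 of 92 below 0, against -0.11 for short protein-coding genes, -0.15 for mitochondrial and -0.13 for cytoplasmic ribosomal proteins. Without SRSF3 replicate A it was 0.003 and without SRSF3 replicate B -0.37, so its size depended on replicate A. After SRSF7 knockdown the median was 0.13, against 0.12 for short genes.

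After the other knockdowns limma called members with the block alone, at most 2 in a contrast. *Cox6b2*, a testis isoform of a complex IV subunit, was lower after SRSF2 knockdown in both fractions and after SRSF7 knockdown in the whole cell. There it had 60.7 and 99.8 scaled reads after SRSF2 and 67.7 and 98.1 after SRSF7, against 133 and 160 in GFP cells. All 4 knockdown libraries lay below both GFP libraries. The log2 fold changes were -0.90 and -0.83 (with the block, limma adjusted p = 0.00533 and 0.0236, without it 0.325 and 0.609). In the cytoplasm after SRSF2 knockdown it had 69.7 and 172 against 253 and 260 in GFP cells (-1.22, with the block 0.0355), and after SRSF7 knockdown 122 and 241, a log2 fold change of -0.61 that did not pass (with the block 0.428).

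*Ndufa7*, an accessory subunit of complex I, had 1769 and 2059 scaled reads in the whole cell after SRSF7 knockdown against 2722 and 2982 in GFP cells. The groups did not overlap and the log2 fold change was -0.57 (SE 0.11, limma adjusted p = 0.208, with the block 0.0066). In the cytoplasm it had 4581 and 6847 after SRSF7 knockdown against 6313 and 7950, where the groups overlap, and did not pass (-0.37, with the block 0.367). After SRSF1 knockdown *Ndufa9* was lower in the whole cell, with 3159 and 3354 against 4041 and 4190 (-0.34, limma adjusted p = 0.0924, with the block 0.0128). *Atp5a1*, the alpha subunit of the ATP synthase, was higher after SRSF1 knockdown in both fractions, with log2 fold changes of 0.50 (cytoplasm) and 0.37 (whole cell) (with the block 0.0349 and 0.00819). *Atp5sl*, an assembly protein of complex I in human cells, had 2979 and 2913 against 1943 and 1780 in the cytoplasm (0.67, with the block 0.0142).

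Genes of the same pathway outside the members were followed for comparison. After SRSF3 knockdown all 9 transcripts of mitochondrial DNA that could be tested in the whole cell had positive log2 fold changes, between 0.59 and 0.91 (median 0.72). In limma *mt-Nd4* (0.82, adjusted p = 0.0304) and *mt-Nd6* (0.91, adjusted p = 0.0338) passed, and with the block all 9 did. In the cytoplasm the median was 0.66 over 10 transcripts and 7 passed with the block. Positive values were not particular to SRSF3. In the whole cell all 9 were positive after SRSF4 (median 0.38), SRSF5 (0.23) and SRSF7 knockdown (0.42). After SRSF1, SRSF2 and SRSF6 knockdown 6, 6 and 7 of them were. In the cytoplasm all 10 were positive after SRSF4 and SRSF6, and 6, 3, 8 and 8 after SRSF1, SRSF2, SRSF5 and SRSF7. None was called after these other knockdowns, which share the GFP libraries. Without SRSF3 replicate A the values of *mt-Nd1*, *mt-Nd2*, *mt-Nd4* and *mt-Nd6* in the cytoplasm turned to -0.11, -0.17, -0.04 and -0.01. *mt-Co1* was listed at 0 in all 16 whole-cell libraries, and *mt-Atp6*, *mt-Atp8* and *mt-Co3* in 10 of them, and they were left out there.

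Of 30 carriers and assembly factors of the chain, 5 were higher and 1 lower in the whole cell after SRSF3 knockdown in limma, where 11.4% of all genes were called. *Surf1*, which helps to assemble complex IV, had a log2 fold change of 0.64 (adjusted p = 0.0135), and *Atpaf1* and *Atpaf2*, chaperones of the ATP synthase, had -0.61 (0.0138) and 0.49 (0.0361). Of 13 regulators *Esrra* was higher (0.41, adjusted p = 0.0424) and *Gabpb1* lower (-0.35, adjusted p = 0.0281), a share near that of all genes. *Timmdc1*, an assembly factor of complex I, was lower after SRSF1 knockdown in both fractions with the block alone (cytoplasm -0.83, whole cell -0.66, adjusted p = 0.00193 and 0.00258).

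Exon use within members was examined through exon bins, the pieces into which overlapping exons of a gene are cut. A bin was called at an adjusted p below 0.1 in limma's diffSplice over all bins, and its log2 value is its change relative to the other bins of the gene. Over the 14 contrasts, 13 calls fell on 7 bins of 7 members, 11 higher and 2 lower. Between 659 and 708 bins of members were tested in a contrast. Of all bins tested in the whole cell, 0.322%, 0.112%, 0.394%, 0%, 0%, 0.00328% and 0.0725% were called for SRSF1 to SRSF7, and in the cytoplasm 0.183%, 0.0139%, 0.499%, 0.00207%, 0.00338%, 0.00666% and 0.0518%. With the block these shares were 0.514%, 0.17%, 0.496%, 0%, 0%, 0.0137% and 0.143% in the whole cell and 0.956%, 0.0229%, 1.81%, 0.0117%, 0.0054%, 0.0819% and 0.323% in the cytoplasm. Calls on 4 bins passed in limma, with the block and in edgeR alike.

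One of these is a bin of *Atp5g3* (mm10 chromosome 2, 73908731 to 73909182, minus strand) of 452 bases, carried by 1 processed transcript without a reading frame in the annotation. In the whole cell it took 6.86% and 4.72% of the gene's bin reads after SRSF2 knockdown against 1.15% and 1.52% in GFP cells. In the cytoplasm the shares were 3.06% and 1.29% against 0.237% and 0.160%, and after SRSF1 knockdown 0.909% and 0.505%. The knockdown libraries lay above GFP in each case, and in the other 5 knockdowns the shares were between 1.09% and 1.77% in the whole cell. The log2 changes were 2.09 (adjusted p = 7.73e-05) and 3.31 (0.0292) after SRSF2 and 1.75 (0.00959) in the cytoplasm after SRSF1.

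*Cox6c*, a complex IV subunit, had a bin of 1741 bases of a retained-intron transcript (mm10 chromosome 15, 35935414 to 35937154, minus strand) that was called in the whole cell after SRSF2 knockdown. It took 7.65% and 6.53% of bin reads against 3.16% and 2.35% in GFP cells, with no overlap (log2 change 1.43, adjusted p = 0.00286). In the cytoplasm its shares were 0.839% and 0.461% against 0.28% and 0.149%, a log2 change of 1.53 that did not pass (adjusted p = 1).

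*Uqcr10*, a small subunit of complex III, had a bin of 86 bases (mm10 chromosome 11, 4703904 to 4703989, minus strand) that belongs to 2 processed transcripts. After SRSF3 knockdown it took 10.4% and 10.6% of bin reads in the whole cell against 5.28% and 4.88% in GFP cells, and after SRSF7 knockdown 2.35% and 2.72%. The SRSF3 libraries were the highest and the SRSF7 libraries the lowest of the 16. The log2 changes were 1.08 after SRSF3 (adjusted p = 0.0146) and -0.99 after SRSF7 (0.0910). In the cytoplasm the shares were 8.95% and 9.51% after SRSF3 and 1.77% and 2.51% after SRSF7 against 4.98% and 4.68% in GFP cells, and passed with the block alone (adjusted p = 0.00183 and 0.00169). After SRSF6 knockdown the bin also lay below both GFP libraries, with 3.35% and 4.20% in the whole cell and 2.64% and 3.64% in the cytoplasm, log2 changes of -0.46 and -0.72 that did not pass (with the block 1.00 and 0.190). In the whole cell SRSF2, SRSF4 and SRSF5 knockdown libraries were below GFP too, by less (log2 changes of -0.15, -0.08 and -0.14).

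*Ndufab1* encodes the mitochondrial acyl carrier protein, which is also a subunit of complex I. The 2936-base bin of its last exon (mm10 chromosome 7, 122085403 to 122088338, minus strand) took 17.0% and 12% of bin reads in the whole cell after SRSF3 knockdown and 16% and 11.7% after SRSF7 knockdown, against 7.47% and 6.73% in GFP cells. In both knockdowns the 2 libraries lay above GFP. The log2 changes were 1.14 (adjusted p = 0.0214) and 1.07 (0.0178), and in edgeR the adjusted p were 0.0455 and 0.0593. In the cytoplasm after SRSF3 knockdown the log2 change was 1.16 (0.0429), which did not pass in edgeR (0.164), and after SRSF7 knockdown it was 0.69 and passed with the block alone (0.0107). After SRSF6 knockdown the bin also lay above GFP, with 11.6% and 9.97% in the whole cell (with the block adjusted p = 0.608) and 6.46% and 5.06% against 3.98% and 2.62% in the cytoplasm, where it passed with the block alone (0.0195). In *Ndufv3* a long exon of 1092 bases took 24.1% and 15.3% after SRSF7 knockdown against 12.3% and 9.36% in the whole cell, and 19.3% and 10.0% against 9.72% and 7.25% in the cytoplasm, and passed with the block alone (adjusted p = 0.0116 and 0.00684).

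**Figure D4:**
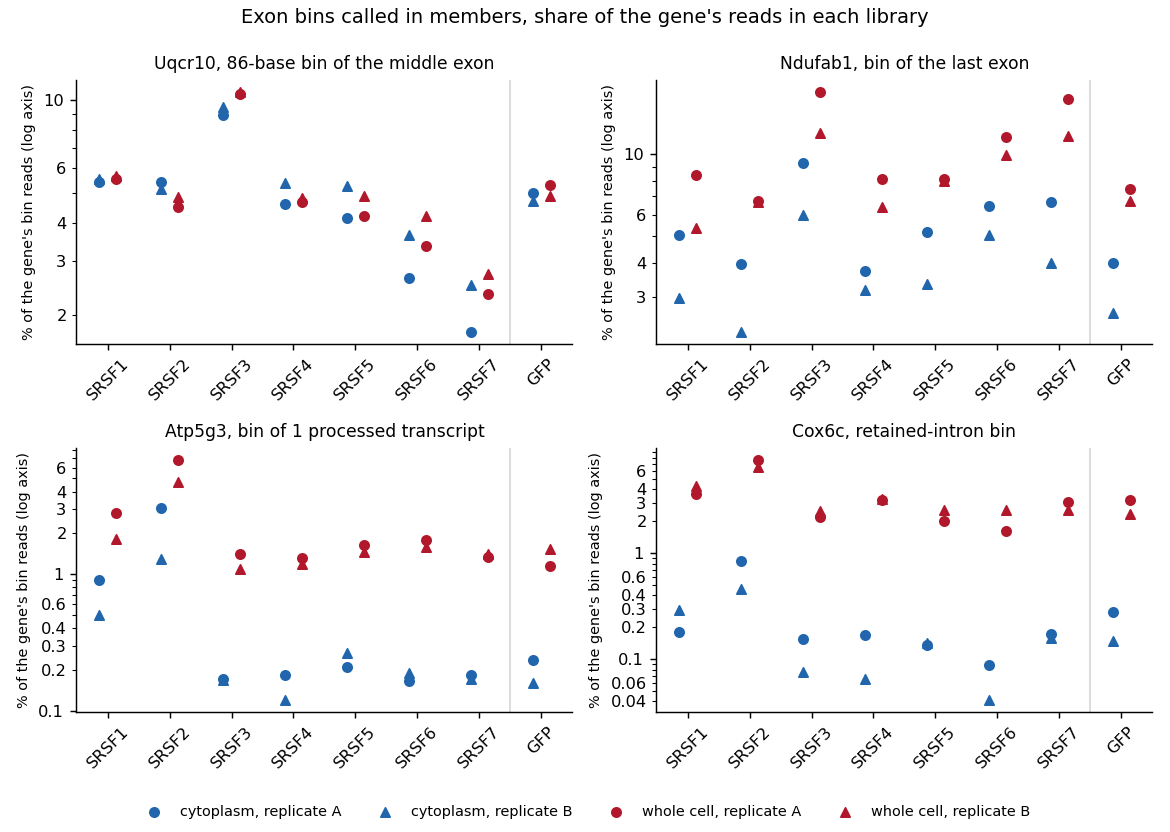
Share of the gene's bin reads, in percent on a log axis, taken by 1 exon bin each of *Uqcr10*, *Ndufab1*, *Atp5g3* and *Cox6c* in every library, with the 7 knockdowns left of GFP. Blue marks are cytoplasm and red marks whole cell, with circles for replicate A and triangles for replicate B. The *Uqcr10* bin is highest after SRSF3 and lowest after SRSF7 knockdown, and the *Atp5g3* and *Cox6c* bins are highest after SRSF2 knockdown in both fractions.

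The remaining called bins passed in limma and with the block but not in edgeR, in *Atp5sl* (-1.57) and *Ndufa12* (1.31) in the cytoplasm after SRSF1 knockdown, with edgeR adjusted p of 0.189 and 1.00, and in *Atp5a1* in the cytoplasm after SRSF1 (0.65) and SRSF5 knockdown (0.70). Leaving out single libraries ended bin calls. Their direction stayed, which adds no support where the groups do not overlap. For the *Uqcr10* bin each library left out ended the call in the whole cell, with adjusted p between 0.102 and 0.519 after SRSF3. The *Atp5g3* bin in the whole cell passed without SRSF2 replicate A (0.0186) and replicate B (1.83e-04) and without GFP replicate A (0.0983), and missed the threshold without GFP replicate B (0.102). None of these bins overlaps an exon of another gene in the bin annotation.

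Tissue isoforms of subunits were far below their widely expressed partners in the same libraries. *Cox6a2*, the isoform of heart and skeletal muscle, had between 10.0 and 84.3 scaled reads in cytoplasmic and between 8.78 and 38 in whole-cell libraries, against 5037 to 10272 and 4632 to 6023 for *Cox6a1*. *Cox4i2*, known from lung, had at most 32.6 scaled reads in the cytoplasm, against at least 10722 for *Cox4i1*. *Cox8c* was above 0 in 1 of 16 cytoplasmic libraries and in 0 of 16 whole-cell libraries, and *Cox8b* in 5 and 2 of 16, all of replicate A.

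Replicate A and B differed in several of these genes, low and abundant. The abundant *Cox6a1* was higher in A than in B in 1 of 8 groups in the whole cell and in 0 in the cytoplasm. *Ndufa4* went the other way in the whole cell, higher in A in all 8 groups. In all 8 groups and both fractions *Cox6a2* and *Ndufa4l2* were lower in replicate A than in replicate B, with medians for *Cox6a2* of 28.1 in A and 65.2 in B in the cytoplasm. The marker list of muscle and heart did not part in the same way, with 7.07 to 21.1 CPM in A and 7.42 to 13.3 in B in the cytoplasm. *Cox7a1*, at 78.8 to 186 scaled reads in the cytoplasm, had 78.8 and 106 after SRSF6 knockdown against 158 and 161 in GFP cells, a log2 fold change of -0.78 that did not pass (limma adjusted p = 0.977, with the block 0.204).

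**Figure D5:**
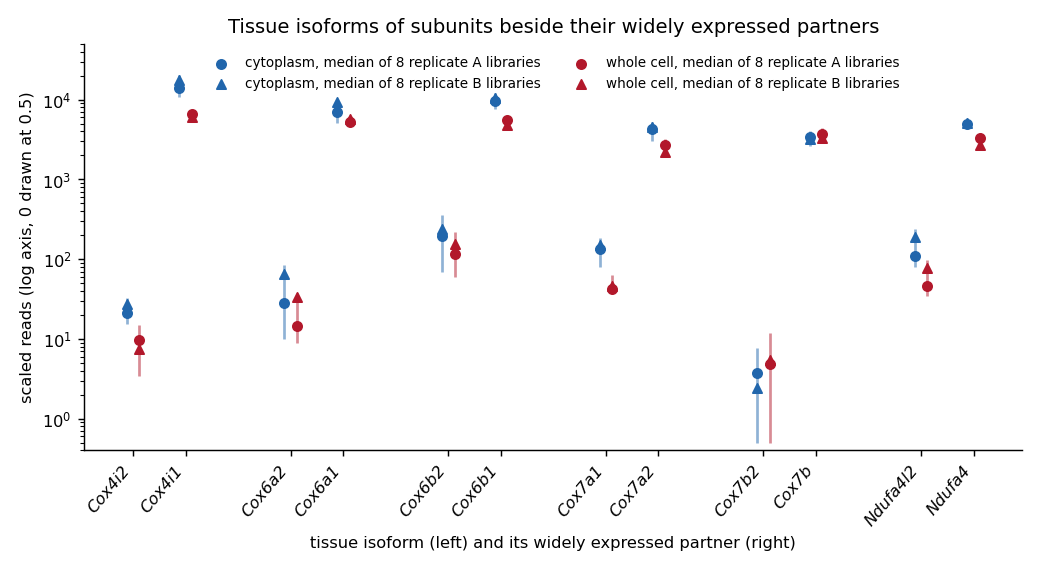
Scaled reads on a log axis for 6 tissue isoforms (left of each pair) and their widely expressed partners (right of each pair) in the cytoplasm (blue) and the whole cell (red). Circles and triangles are medians of the 8 libraries of replicates A and B, and lines run from the lowest to the highest of the 16 libraries, with 0 drawn at 0.5. Each isoform lies below its partner in every library. *Cox6a2*, *Ndufa4l2* and the partner *Cox6a1*, among others, have the lower median in replicate A.

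Some values carry a limit of annotation. *Ndufb2*, *Ndufb8* and *Atp5o* share exon bins with neighbouring genes and were not examined for exon use. Many of these genes have processed pseudogenes, and how reads that map to several places were treated, and whether counting used the strand, is not stated in the labels or methods.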

How the data were processed

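Gene values, in unit signal, are the count estimates that the authors deposited per replicate after Cufflinks 2.1.1, scaled to a common depth within each table, beside FPKM values that the authors deposited per group. Per the labels and methods, reads were mapped with TopHat2 (2.0.9 and 2.0.10) and Bowtie2 2.1.0 to the mouse genome. The cutadapt version and the strandedness of counting are not given in the sources used here. Exon bin signal, deposited by the authors with mm10 coordinates, is reads per bin divided by 1 DEXSeq size factor per library. Tables of transcript tests and of splicing comparisons made by the authors hold their own results and were not used.

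Low gene values were whole multiples of 1 read within 0.1 for 97.8% to 98.6% of values, and bin values within 0.01 for 100% of values, so reads were recovered for the count tests. Genes listed at 0 although their exon bins held reads were left out of that fraction's fits. Values were fitted as log2(value + 1) with TMM scaling and limma 3.58.1 (R 4.3.3) on the 16 libraries of a fraction, or all 32 for the interaction, with genes filtered by edgeR's filterByExpr. Fold changes on this scale understate the change of low genes. For diffSplice a bin needed a mean of 5 or more. Alternatives were edgeR 4.0.16 and DESeq2 1.42.0 on recovered reads, no filter, a pseudocount of 5, no TMM, only the libraries compared, a bin mean of 20, a replicate block, and each library left out. The block with edgeR and with libraries left out was added after seeing the data, for SRSF3 alone.

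The labels give only the letters A and B. Over the 28 pairs of groups the A minus B differences correlated across genes with Spearman's rho between 0.238 and 0.814 in the whole cell and between 0.449 and 0.827 in the cytoplasm, so the letters were taken to pair the libraries. The p-values measure the spread between these samples. With 2 libraries a group, exact permutation tests cannot reach 0.05.

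Members named were those called in a contrast, and up to 10 of those called with the block by absolute log2 fold change. Further ones were subunits fixed for their roles, tissue isoforms, members with called bins, and the 3 highest and lowest by FPKM. Members named for their ratio between fractions, and the members beyond the first 10 of the SRSF3 knockdown, were chosen after their values were seen. The members and all lists were chosen with earlier results of these data known. Scripts were tested on simulated data. Tables were made with Python 3.11.15, pandas 2.3.3, numpy 2.4.6 and matplotlib 3.10.9.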

Additional observations from a re-analysis of the deposited data

Results flagged for a closer look

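The 86-base bin of *Uqcr10* moved in opposite directions after 2 knockdowns. Its use relative to the other bins of the gene was higher after SRSF3 knockdown, with log2 changes of 0.96 (cytoplasm) and 1.08 (whole cell), and lower after SRSF7 knockdown, with -1.22 (cytoplasm) and -0.99 (whole cell). In each fraction both SRSF3 libraries lay above both GFP libraries and both SRSF7 libraries below them. Both SRSF6 libraries lay below GFP as well, with log2 changes of -0.72 (cytoplasm) and -0.46 (whole cell) that did not pass, so that lower use was not seen after SRSF7 knockdown alone. The difference between the 2 knockdowns was not tested, and both share the same GFP libraries. Groups of 2 libraries are too small for a test of single samples that stand apart.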

How the results depend on the processing

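The replicate block, which pairs libraries by letter, changed the counts of called members. It gave 2 after SRSF1 and SRSF7, 1 after SRSF2 and 21 after SRSF3 in the whole cell, and 2 after SRSF1, 1 after SRSF2 and 6 after SRSF3 in the cytoplasm. In edgeR with the block the SRSF3 counts were 20 in the whole cell and 6 in the cytoplasm. Shares of all genes called by edgeR and DESeq2 are not given here. Without the block DESeq2 gave 5 after SRSF3 and 1 each after SRSF1 and SRSF7 in the whole cell, and 1 after SRSF3 in the cytoplasm. The SRSF3 count in the whole cell was 1 with no filter on low values and 0 with only the libraries compared. Leaving out single libraries gave 0 to 6 members there without the block and 4 to 30 with it (15 without SRSF3 replicate B), and 0 to 8 with it in the cytoplasm. For exon bins the block gave 1 after SRSF1 and 5 after SRSF7 in the whole cell, and 7, 8, 2, 2, 1 and 5 after SRSF1, SRSF3, SRSF4, SRSF5, SRSF6 and SRSF7 in the cytoplasm. In edgeR these counts were 1 after SRSF1 in each fraction and 0 after SRSF3 and SRSF5 in the cytoplasm. A pseudocount of 5 gave 2 after SRSF3 in the cytoplasm, and a bin mean of 20 gave 1 after SRSF7 in the whole cell. Leaving out single libraries gave in the cytoplasm 0 to 4 bins after SRSF1, 0 to 64 after SRSF2, 0 to 5 after SRSF3 and 0 to 1 after SRSF4 and SRSF5, and in the whole cell 0 to 1 after SRSF1 and SRSF7, 0 to 4 after SRSF2 and 0 to 2 after SRSF3. For SRSF3 in the cytoplasm the log2 fold changes of *mt-Nd1*, *mt-Nd2*, *mt-Nd4* and *mt-Nd6* were -0.114, -0.173, -0.0416 and -0.0147 without replicate A of the knockdown and 1.37, 1.35, 1.05 and 1.39 without its replicate B. The cause of these changes was not tested. Each group has 2 libraries.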
